A study of Oryctolagus cuniculus with 20 samples.

Results

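Tricuspid valves of 5 rabbits treated with pergolide were compared with tricuspid valves of 5 rabbits treated with serotonin. These 10 valves were chosen by the treatment in their labels alone, out of 20 valves sequenced. All rabbits were female New Zealand white rabbits, aged 8 weeks at the start, and each valve was collected from a separate rabbit after 16 weeks. Serotonin was given by mouth in drinking water at 80 mg/kg per day and pergolide at 0.5 mg/kg per day. The doses therefore differ, no dose is shared, and the compound and its dose cannot be told apart. The 5 valves of non-treated rabbits, which received water, are given as background beside the values and did not enter the test. No label names a library batch or a sequencing run, so a batch that followed the treatment cannot be told apart from it.

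Serotonin is an amine that acts through a family of cell surface receptors and is taken up and broken down by transporters and monoamine oxidases. Pergolide is an ergot-derived agonist of dopamine receptors that also activates serotonin receptors, and ergot-derived agonists of this kind are known for valvular heart disease. A valve leaflet is a sheet of collagen, proteoglycan and elastic fibers made by interstitial cells and covered by endothelium, and the tricuspid leaflet is anchored next to heart muscle.

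Genes of pre-mRNA splicing and ribosome assembly were mostly lower in pergolide valves than in serotonin valves when read counts were scaled by the TMM method. Of 60 tested splicing and hnRNP genes 44 were lower and 10 higher, and of 39 ribosome assembly genes 26 were lower and 4 higher. Scaled instead to library sizes without the most abundant gene, 13 higher and 28 lower of the 60 and 5 higher and 12 lower of the 39 were called, so that in neither list were most genes then called lower. Mitochondrially encoded genes were lower in 8 of 13 cases and higher in none. Over the alternatives 5 to 13 were lower, with 5 when serotonin replicates 2 and 4, the valves highest in these genes, were left out. With TMM scaling those valves also had the highest summed cardiomyocyte markers. They had the smallest TMM factors too, 0.668 and 0.774, and a smaller factor raises every scaled level of a valve. Collagen genes were higher in 5 of 14 cases and lower in none, and 11 of 31 matrix glycoprotein and proteoglycan genes were higher against 1 lower. Ribosomal protein genes moved in both directions. For comparison, of the tested genes with a symbol, from which all these lists are drawn, 49.8% differed, 22.6% being higher in pergolide valves and 27.2% lower. The counts of both matrix lists rest on single valves. Collagens fall to 3 of 14 higher when serotonin replicate 2 or 3 is left out, and to 3 higher against 1 lower without pergolide replicate 5. Matrix glycoproteins and proteoglycans fall to 7 of 31 higher without serotonin replicate 5.

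The measurement is a read count per gene, made by the authors. Totals were 3890579, 4797371, 3526853, 4880440 and 3651289 reads in serotonin replicates 1 to 5, and 4848510, 5921025, 4794216, 4520559 and 4484239 in pergolide replicates 1 to 5. The groups overlapped, and the difference of their means did not pass (exact two-sided permutation test, p = 0.11, n = 5 against 5, where the smallest possible p is 0.0079). The number of genes with a read was higher in each pergolide valve (11107 to 11241) than in each serotonin valve (10780 to 11063, exact two-sided permutation test, p = 0.0079, n = 5 against 5).

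A single gene without a symbol, ENSOCUG00000029084, held 29.6, 39.4, 37.1, 39.1 and 34.5% of the reads of serotonin replicates 1 to 5 and 31.4, 34.7, 35.7, 31.2 and 31.7% of those of pergolide replicates 1 to 5. The ranges overlapped, and the difference of the means, -2.99 percentage points, did not pass (exact two-sided permutation test, p = 0.19, n = 5 against 5). As a gene it was called lower with svaseq variables in limma-voom and edgeR (adjusted p = 0.0051 and 0.017) and not called by edgeR without them (edgeR adjusted p = 0.35). Without serotonin replicate 1, the valve with the lowest share, the difference was -4.59 percentage points (exact two-sided permutation test, p = 0.040). The 13 mitochondrially encoded genes with a symbol together held 8.01, 10.4, 8.09, 10.4 and 8.98% of the reads in serotonin replicates 1 to 5. In pergolide replicates 1 to 5 they held 8.21, 7.92, 7.90, 5.35 and 5.24%. Pergolide replicates 4 and 5 lay well below all other valves, and of the pergolide valves replicate 1 alone lay within the serotonin range. The difference of the mean mitochondrial shares was -2.24 percentage points (exact two-sided permutation test, p = 0.040, n = 5 against 5).

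Read counts were scaled by the TMM method, which derives a factor per valve from the bulk of genes, and are given as CPM, counts scaled to a common library size. Principal components were computed from the log2 CPM of the 500 most variable genes. Component 1, with 47.4% of the variance, separated the groups. Serotonin valves scored between -20.4 and -8.24 on it while pergolide valves scored between 10.6 and 16.0. Component 2 held 11.4% and spread the valves within each group. Serotonin replicate 2, the valve with the lowest score on both components, also had the smallest TMM factor, at 0.668, and the largest share of ENSOCUG00000029084.

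**Figure D1:**
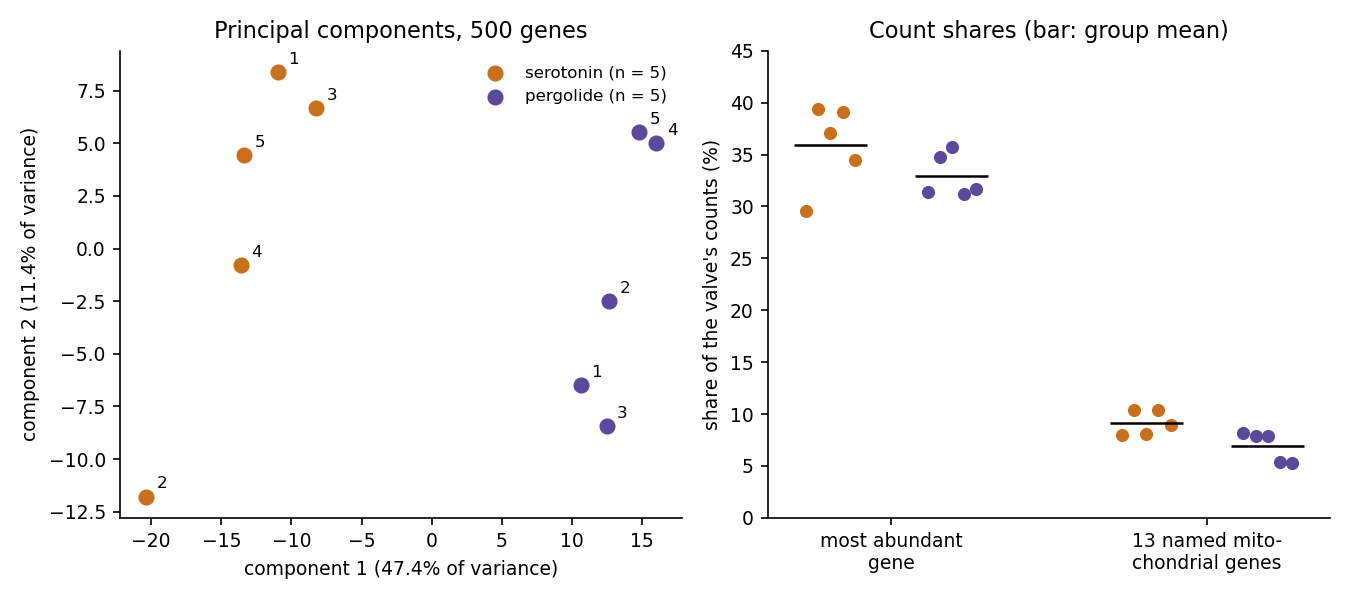
Left, scores of the 10 valves on the first and second principal components (axes in score units, numbers are replicates), with pergolide valves at 10.6 or above and serotonin valves at -8.24 or below on the first. Right, percent of each valve's counts on the most abundant gene and on 13 mitochondrially encoded genes, where points are replicates 1 to 5 from left to right and bars are group means.

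Of 23669 genes counted, 8250 passed the filter on low counts, and edgeR tested each of them on the 10 valves by quasi-likelihood. A gene is described as called, or as higher or lower, at a Benjamini-Hochberg adjusted p under 0.05 over these 8250 genes. In total 2446 genes were called, 1082 higher and 1364 lower in pergolide valves, and 3386 had an unadjusted p-value under 0.05. The median log2 difference was 0.56 among genes called higher and -0.62 among genes called lower. In 382 called genes the difference was at least 2-fold, 132 of them higher and 250 lower. The 5 pergolide and 5 serotonin valves did not overlap in 1739 tested genes (21.1%), of which 1665 were called.

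The split into higher and lower depends on the scaling. Scaled to library sizes without ENSOCUG00000029084 and with no further factor, 2513 genes were called, of which 80.3% were higher, against 44.2% with TMM. That scaling moved the median log2 difference by 0.26. Every difference, CPM sum and overlap of CPM values given here is relative to TMM scaling. With upper-quartile factors 51.7% of the called genes were higher, with a shift of 0.04. Among the 124 genes chosen for description, none was called in opposite directions by TMM and an alternative.

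Symbols were available only for genes that the study listed as changed by any of its treatments, dexfenfluramine included, against the non-treated group. For serotonin and pergolide those lists rest on these same valves, so genes with a symbol are not a neutral sample. Of the 3393 tested genes with a symbol 49.8% were called, 22.6% higher and 27.2% lower. Counts in the gene lists are to be read against those shares, and they are not independent evidence of a direction. Ranges in parentheses after a list median cover every alternative to the method, each valve left out in turn and an adjusted p under 0.01. The median log2 difference was 0.02 over all tested genes and 0.04 over those with a symbol. In the non-treated valves the mean log2 level was nearer to that of serotonin than of pergolide valves for 839 of the 1082 genes called higher and 1053 of the 1364 called lower. The share among genes not called was 58.9%, and these positions are a description without a test.

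**Figure D2:**
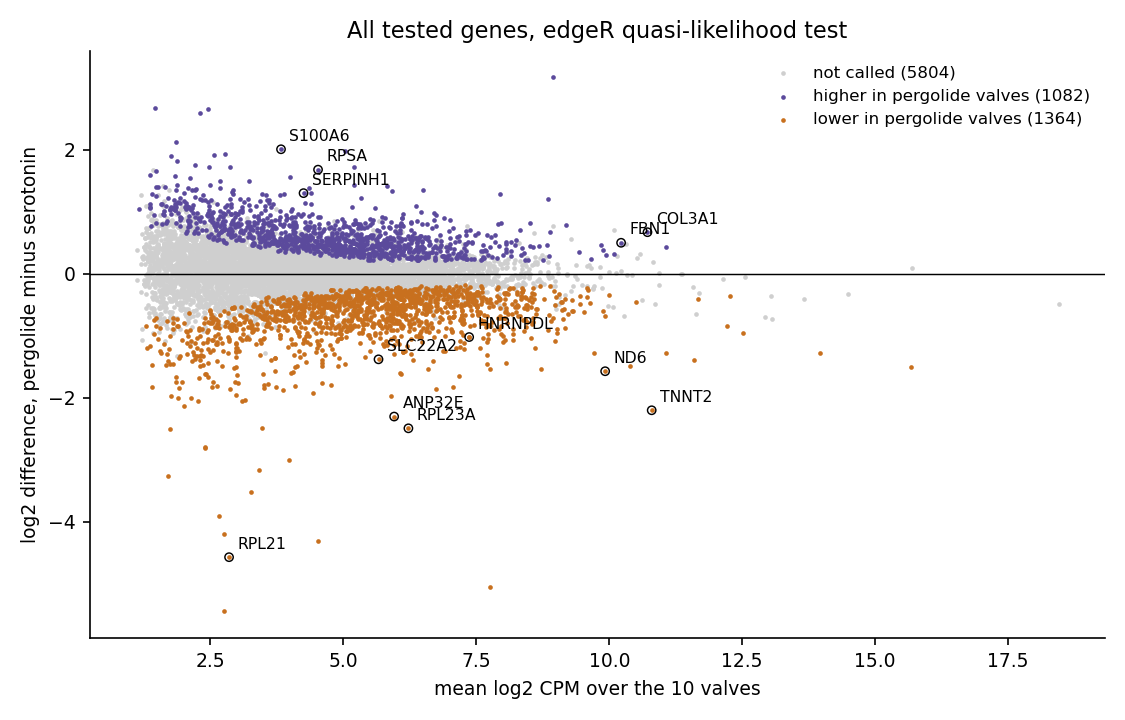
Log2 difference of pergolide minus serotonin valves (vertical axis) against mean log2 CPM over the 10 valves (horizontal axis) for the 8250 tested genes. Of these, 1082 were called higher (purple), 1364 lower (orange) and the rest not called (grey), and circles mark 12 of the genes described in the text.

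Largest rises and falls are ranked among called genes whose valves did not overlap. Among those with a symbol, and leaving aside SNORA74, which had too few reads in serotonin valves to be ranked by size, the largest rise was that of S100A6 (ENSOCUG00000024096), a calcium-binding protein. Its level was 6.46, 2.50, 7.23, 6.63 and 3.07 CPM in serotonin replicates 1 to 5. In pergolide replicates 1 to 5 it was 25.9, 21.4, 16.6, 18.1 and 23.5 CPM. All pergolide valves lay above all serotonin valves, with a log2 difference of 2.00 (standard error 0.25, edgeR adjusted p = 7.7e-05), and the level of the non-treated valves was 5.85 ± 1.93 CPM (SD, n = 5).

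HHAT, which attaches palmitate to Hedgehog proteins, PHKB, a subunit of phosphorylase kinase, and SERINC5, a membrane protein that incorporates into virus particles, were also among the largest rises. PHKB was 7.64 ± 1.77 CPM in serotonin and 22.4 ± 1.56 CPM in pergolide valves (SD, n = 5), a log2 difference of 1.56 (standard error 0.15, edgeR adjusted p = 1.8e-05). HHAT and SERINC5 differed by 1.57 and 1.43 on the log2 scale (edgeR adjusted p = 0.0015 and 0.00073). HHAT had 27 reads over the serotonin valves, at most 7 in a valve, so the size of its rise is uncertain. The others were small nucleolar RNAs (SNORA68, SNORA76, SNORA73B) and the ribosomal protein genes RPSA and RPS26.

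The largest falls included ANP32E, a chaperone that removes the histone variant H2A.Z from chromatin. ANP32E (ENSOCUG00000022805) was at 113, 138, 73.1, 97.8 and 99.2 CPM in serotonin replicates 1 to 5. It was at 19.3, 24.3, 21.4, 20.3 and 20.0 CPM in pergolide replicates 1 to 5, with a log2 difference of -2.30 (standard error 0.15, edgeR adjusted p = 1.3e-06). The lowest serotonin valve had about the level of the non-treated valves, 78.5 ± 10.9 CPM (SD, n = 5), and the pergolide valves varied little among themselves.

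Further falls among the largest were those of PIN4, a peptidyl-prolyl isomerase, ATPIF1, the inhibitor of the mitochondrial ATP synthase, LINC00116, a transcript for a small mitochondrial peptide, and PDZK1, a scaffold for membrane transporters. ATPIF1 was 169.8 ± 107 CPM in serotonin and 46.7 ± 10.5 CPM in pergolide valves (SD, n = 5), a log2 difference of -1.86 (standard error 0.33, edgeR adjusted p = 0.00099). PIN4, LINC00116 and PDZK1 had log2 differences of -2.05, -1.84 and -1.84 (edgeR adjusted p = 0.00045, 6.9e-05 and 0.0018). PDZK1 had 105 reads over the serotonin valves and 43 over the pergolide valves, at most 17 in a pergolide valve, so the size of its fall is uncertain. In ATPIF1 and PIN4 the serotonin valves spread widely, with replicate 2 the highest, at 354 and 26.6 CPM. The other falls of this group were RPL21, RPL23A, RPL36, TNNT2 and SNORD99, described with their lists.

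Several genes without a symbol differed more. ENSOCUG00000018808 was at 83.9, 147, 109, 76.9 and 79.2 CPM in serotonin replicates 1 to 5 and 1006, 850.1, 843, 798 and 937 CPM in pergolide replicates 1 to 5. Its log2 difference was 3.16 (standard error 0.17, edgeR adjusted p = 3.7e-07), and ENSOCUG00000027606 followed with 2.65 (standard error 0.28, edgeR adjusted p = 2.9e-05), an uncertain size that rests on 23 reads over the serotonin valves, at most 8 in a valve. ENSOCUG00000018201 was lower, at 405, 915, 180.1, 306 and 300.2 CPM in serotonin replicates 1 to 5 and 15.0, 10.6, 16.6, 8.16 and 13.2 CPM in pergolide replicates 1 to 5. The serotonin valves of this gene spread over a wide range, yet the lowest of them lay above all pergolide valves, and the log2 difference was -5.05 (standard error 0.42, edgeR adjusted p = 6.2e-06). ENSOCUG00000021919 had 8 reads over the 5 pergolide valves, at most 3 in a valve, and up to 77 reads in a serotonin valve (edgeR adjusted p = 5.6e-06), so no size of its fall is given. What these genes encode was not given with the counts.

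Collagen genes that passed the test were higher in pergolide valves. Of 26 genes in the list 14 had a symbol and were tested, 5 of them higher, none lower, with a median log2 difference of 0.25 (2 to 8 higher, none to 1 lower and a median of 0.20 to 0.51 over the alternatives). Leaving out serotonin replicate 2 or 3 gave 3 higher and none lower, leaving out pergolide replicate 5 gave 3 higher and 1 lower, and library sizes without ENSOCUG00000029084 gave 8 higher and none lower. COL3A1 (ENSOCUG00000014988), a fibrillar collagen of elastic tissues and the most abundant of the list in CPM, was at 1333, 1251, 1209.6, 1475 and 1235 CPM in serotonin replicates 1 to 5. In pergolide replicates 1 to 5 it was at 1914, 1998, 1764, 1900.1 and 2756 CPM. The groups did not overlap, pergolide replicate 5 was well above the rest, and the log2 difference was 0.67 (standard error 0.13, edgeR adjusted p = 0.0018), beside 1039 ± 269.9 CPM (SD, n = 5) in non-treated valves.

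COL4A2 and COL4A1 encode chains of the network collagen of basement membranes. COL4A2 was 19.4, 17.8, 17.1, 13.8 and 13.9 CPM in serotonin replicates 1 to 5 and 25.2, 20.4, 36.2, 33.0 and 28.8 CPM in pergolide replicates 1 to 5. The groups lay apart, and the log2 difference was 0.80 (standard error 0.16, edgeR adjusted p = 0.0027). COL4A1 overlapped in 1 serotonin valve, replicate 1, and had a log2 difference of 0.48 (standard error 0.13, edgeR adjusted p = 0.012), a call lost with serotonin replicates 2 and 4 left out together (edgeR adjusted p = 0.057). NID1, which links the collagen network to laminin, was 19.4 ± 6.31 CPM in serotonin and 52.3 ± 24.0 CPM in pergolide valves (SD, n = 5), with a log2 difference of 1.43 (standard error 0.30, edgeR adjusted p = 0.0031).

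Of the genes that process collagen 7 of 22 were tested, 1 higher and 1 lower, with a median of 0.24 (1 to 2 higher, 1 lower and a median of 0.11 to 0.49 over the alternatives). The higher one was SERPINH1 (ENSOCUG00000026029), the chaperone of collagen in the endoplasmic reticulum. It was at 8.30, 10.0, 13.3, 7.95 and 13.1 CPM in serotonin replicates 1 to 5 and at 18.7, 30.7, 24.5, 28.7 and 26.1 CPM in pergolide replicates 1 to 5. The lower one was PPIB, a prolyl isomerase that acts on collagen in the same compartment, at 109.7 ± 19.2 CPM in serotonin and 61.6 ± 4.44 CPM in pergolide valves (SD, n = 5). The log2 difference was 1.30 (standard error 0.18, edgeR adjusted p = 0.00018) for SERPINH1 and -0.83 (standard error 0.11, edgeR adjusted p = 0.00016) for PPIB. In both genes the groups lay apart, with opposite directions. PLOD2, a lysyl hydroxylase of collagen, and P4HA3, a prolyl hydroxylase, were not called, with 95% intervals of the log2 difference, not adjusted for the number of genes, from -0.02 to 0.50 and from 0.11 to 1.63. Without serotonin replicate 5 P4HA3 was called (edgeR adjusted p = 0.040), as it was with replicate numbers as a block (edgeR adjusted p = 0.022). Library sizes without ENSOCUG00000029084 also called P4HA3 (edgeR adjusted p = 0.033).

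Matrix glycoproteins and proteoglycans had 31 of 47 genes tested, 11 higher, 1 lower and 19 not called, with a median of 0.25 (6 to 15 higher, none to 2 lower and a median of 0.13 to 0.52 over the alternatives). The calls were 7 higher and 1 lower without serotonin replicate 5, and 8 higher and 2 lower without pergolide replicate 4 or 5, and leaving out pergolide replicate 5 took the median to 0.13. FBN1, the main protein of elastic microfibrils, was 952, 912, 1077, 1042 and 968 CPM in serotonin replicates 1 to 5 and 1340.1, 1446, 1239, 1418 and 1543 CPM in pergolide replicates 1 to 5. Every pergolide valve was above every serotonin valve, and the log2 difference was 0.50 (standard error 0.09, edgeR adjusted p = 0.0014). DPT, dermatopontin, which binds decorin and collagen, was 242 ± 37.4 CPM in serotonin and 393 ± 57.0 CPM in pergolide valves (SD, n = 5), a log2 difference of 0.70 (standard error 0.13, edgeR adjusted p = 0.0012). VCAN, the large proteoglycan of the valve's spongy layer, was 2605 ± 659 CPM and 2594 ± 546 CPM (SD, n = 5), with a 95% interval of the log2 difference from -0.41 to 0.40.

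Matrix proteases and their inhibitors had 15 of 26 genes tested, 2 higher and 1 lower, with a median of 0.22 (1 to 7 higher, 1 lower and a median of 0.15 to 0.48 over the alternatives). Without pergolide replicate 2 the calls were 4 higher and 1 lower, and with library sizes without ENSOCUG00000029084 they were 7 higher and 1 lower. ADAMTS1, a protease of versican and aggrecan, was lower, 281 ± 49.2 CPM in serotonin and 163 ± 24.3 CPM in pergolide valves (SD, n = 5), a log2 difference of -0.79 (standard error 0.13, edgeR adjusted p = 0.00078). The level in non-treated valves, 182 ± 23.3 CPM (SD, n = 5), was near that of pergolide valves. ADAM15, a membrane-bound metalloprotease, and TIMP4, a metalloprotease inhibitor, were higher, by 1.07 and 0.97 on the log2 scale (edgeR adjusted p = 0.0024 and 0.020). Without serotonin replicate 5 the edgeR adjusted p of TIMP4 was 0.052, and in the fit of all 20 valves it was 0.060. MMP2, a gelatinase, was not called (edgeR adjusted p = 0.090) and was called without serotonin replicate 1 (edgeR adjusted p = 0.036) and with svaseq variables in limma-voom and edgeR (adjusted p = 0.028 and 0.032). Library sizes without ENSOCUG00000029084 also called MMP2 (edgeR adjusted p = 0.042).

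Cell-matrix adhesion genes, integrins and the proteins that couple them to actin, had 16 of 27 genes tested, 7 higher and 2 lower, with a median of 0.26 (5 to 10 higher, 1 to 2 lower and a median of 0.22 to 0.51 over the alternatives). Without pergolide replicate 3 the calls were 7 higher and 1 lower, and without serotonin replicate 1 or pergolide replicate 1 or 5 they were 6 higher and 1 lower. BCAR1 (ENSOCUG00000015992), a docking protein phosphorylated at integrin adhesions, was lower in each pergolide valve. It was at 100.3, 97.5, 102, 106 and 87.5 CPM in serotonin replicates 1 to 5 and 49.4, 49.7, 61.6, 57.0 and 55.4 CPM in pergolide replicates 1 to 5, a log2 difference of -0.85 (standard error 0.09, edgeR adjusted p = 1.8e-05). PARVA, which binds integrin-linked kinase, and ITGA7, a laminin receptor subunit of muscle, were higher, by 0.40 and 0.74 on the log2 scale (edgeR adjusted p = 0.0015 and 0.0016). ITGA7 was 32.4 ± 11.1 CPM (SD, n = 5) in non-treated valves, near its pergolide level of 32.3 ± 5.37 CPM, and was not called in the fit of all 20 valves (edgeR adjusted p = 0.091). TLN1, talin, the most abundant of the list, was not called (edgeR adjusted p = 0.77, 95% interval from -0.30 to 0.19).

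Genes of TGF-β and BMP signalling had 20 of 41 tested, 7 higher and 2 lower, with a median of 0.14 (4 to 9 higher, 1 to 3 lower and a median of 0.11 to 0.40 over the alternatives). INHBA (ENSOCUG00000000621), which encodes a subunit of the TGF-β family ligand activin, was 30.7, 63.1, 54.0, 43.7 and 30.4 CPM in serotonin replicates 1 to 5 and 18.7, 13.5, 6.66, 20.0 and 19.8 CPM in pergolide replicates 1 to 5. Every pergolide valve was lower, the log2 difference was -1.48 (standard error 0.27, edgeR adjusted p = 0.0015), and the non-treated valves were near the serotonin level, at 42.2 ± 24.4 CPM (SD, n = 5). LTBP1, which stores latent TGF-β in the matrix, was higher, 251 ± 22.3 CPM against 346 ± 17.8 CPM in pergolide valves (SD, n = 5), a log2 difference of 0.46 (standard error 0.08, edgeR adjusted p = 0.00093). ID1, a transcription regulator induced by BMP, was 8.76, 8.13, 12.7, 8.75 and 13.1 CPM in serotonin replicates 1 to 5 and 19.7, 12.5, 23.1, 28.3 and 19.6 CPM in pergolide replicates 1 to 5. Only pergolide replicate 2 lay within the serotonin range, and the log2 difference of ID1 was 1.00 (standard error 0.22, edgeR adjusted p = 0.0041).

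MAP kinases and subunits and partners of AMPK had 14 of 27 genes tested, 5 higher and 1 lower, with a median of 0.17 (4 to 8 higher, none to 2 lower and a median of 0.12 to 0.43 over the alternatives). The calls were 5 higher and 2 lower without serotonin replicate 4 and 8 higher and none lower with library sizes without ENSOCUG00000029084. MAP2K6, the kinase that phosphorylates p38, was 5.99 ± 0.917 CPM in serotonin and 10.8 ± 0.864 CPM in pergolide valves (SD, n = 5), a log2 difference of 0.84 (standard error 0.15, edgeR adjusted p = 0.0013). MAPK14, p38α itself, was 28.8, 25.9, 28.3, 27.6 and 28.7 CPM in serotonin replicates 1 to 5 and 34.6, 36.0, 39.3, 37.0 and 36.9 CPM in pergolide replicates 1 to 5. Levels varied little within each group and the groups lay apart, with a log2 difference of 0.40 (standard error 0.08, edgeR adjusted p = 0.0023). PPARGC1A, a coactivator of mitochondrial genes acting with AMPK, was not called (edgeR adjusted p = 0.41). These are RNA levels, and kinase activity was not measured in the counts.

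Of 32 genes for serotonin and dopamine receptors, transport and breakdown 5 had a symbol and 4 were tested, 1 lower and none higher (none to 1 higher, 1 lower and a median of 0.14 to 0.46 over the alternatives), so most receptors could not be followed. SLC22A2 (ENSOCUG00000002542) encodes an organic cation transporter that carries serotonin and dopamine at low affinity. It was 73.6, 87.2, 70.8, 74.2 and 61.6 CPM in serotonin replicates 1 to 5 and 25.6, 25.3, 39.1, 25.7 and 25.6 CPM in pergolide replicates 1 to 5. The groups did not overlap, 4 of the pergolide valves were almost equal, and the log2 difference was -1.38 (standard error 0.14, edgeR adjusted p = 1.6e-05). Non-treated valves were in between, at 51.7 ± 12.2 CPM (SD, n = 5).

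The other tested genes of that list were not called. HTR4, a serotonin receptor that raises cAMP, was 4.41 ± 1.46 CPM in serotonin and 6.31 ± 3.30 CPM in pergolide valves (SD, n = 5), with a 95% interval of the log2 difference from -0.23 to 1.26. TGM2, which can couple serotonin to proteins, had an interval from 0.01 to 0.47, and MAOA, which oxidizes serotonin, one from -0.22 to 0.51. SLC22A3, a related transporter, had 23 reads over the serotonin valves and 68 over the pergolide valves and did not pass the filter. Without pergolide replicate 5 it was tested and called higher (edgeR adjusted p = 0.039), but in none of the other fits that tested it. The adjusted p-values of HTR4, TGM2 and MAOA from edgeR were 0.29, 0.10 and 0.55, which does not show that the levels were equal. TGM2 was called with library sizes without ENSOCUG00000029084 (edgeR adjusted p = 0.024).

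Splicing and hnRNP genes, the longest list tested, had the most calls by number. Of 81 genes 60 were tested, 44 lower, 10 higher and 6 not called, with a median log2 difference of -0.62 (7 to 13 higher, 28 to 44 lower and a median of -0.63 to -0.36 over the alternatives), and in 55 of the 60 the groups did not overlap, against 37.6% of all tested genes with a symbol. With library sizes without ENSOCUG00000029084 the calls were 13 higher and 28 lower. HNRNPDL (ENSOCUG00000013805), an RNA-binding protein of the hnRNP D family, was 213, 216, 219, 227 and 231 CPM in serotonin replicates 1 to 5. It was 110.2, 108, 105, 104 and 117 CPM in pergolide replicates 1 to 5. The spread within each group was small beside the gap between them, and the log2 difference was -1.02 (standard error 0.07, edgeR adjusted p = 1.3e-06).

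HNRNPH3 and HNRNPAB, other RNA-binding hnRNP proteins, were lower by similar amounts. HNRNPH3 was 264 ± 29.9 CPM in serotonin and 116 ± 7.02 CPM in pergolide valves (SD, n = 5), and HNRNPAB 203 ± 30.0 CPM and 89.1 ± 3.13 CPM (SD, n = 5). Their log2 differences were -1.19 (standard error 0.09, edgeR adjusted p = 4.8e-06) and -1.19 (standard error 0.10, edgeR adjusted p = 5.6e-06). PNISR, a nuclear serine- and arginine-rich protein and the most abundant of the list, had a log2 difference of -0.88 (standard error 0.10, edgeR adjusted p = 4.3e-05). For HNRNPH3 the non-treated valves, at 241 ± 16.1 CPM (SD, n = 5), were nearer the serotonin valves. Summed over the 60 genes with TMM scaling, the level was 10225, 11233, 9158, 10136 and 10102 CPM in serotonin replicates 1 to 5 and 6827, 7007, 7067, 6988 and 7143 CPM in pergolide replicates 1 to 5, without overlap. The absence of overlap in this sum depends on the TMM factors. Over all alternatives the median of the list stayed below 0, between -0.63 and -0.36.

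Ribosome assembly genes, which make and process ribosomal RNA in the nucleolus, had 39 of 64 tested, 26 lower, 4 higher and 9 not called, with a median of -0.55 (2 to 5 higher, 12 to 27 lower and a median of -0.57 to -0.28 over the alternatives). With library sizes without ENSOCUG00000029084 the calls were 5 higher and 12 lower, with a median of -0.28. RSL24D1 (ENSOCUG00000007447), a factor of large subunit assembly, was 127, 129, 95.7, 113 and 111 CPM in serotonin replicates 1 to 5 and 47.3, 42.9, 46.0, 43.1 and 41.1 CPM in pergolide replicates 1 to 5. All pergolide valves were below all serotonin valves, with a log2 difference of -1.39 (standard error 0.09, edgeR adjusted p = 1.6e-06). NCL, nucleolin, an abundant nucleolar protein, was 480.1, 643, 403, 479 and 475 CPM in serotonin replicates 1 to 5 and 244, 239, 251, 225 and 253 CPM in pergolide replicates 1 to 5. Serotonin replicate 2 was the highest valve, and the log2 difference of NCL was -1.03 (standard error 0.11, edgeR adjusted p = 2.9e-05). TAF1D, a subunit of the RNA polymerase I factor, and LAS1L, which cleaves a ribosomal RNA precursor, were lower, with log2 differences of -1.26 and -1.19 (edgeR adjusted p = 1.2e-05 and 9.5e-06).

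**Figure D3:**
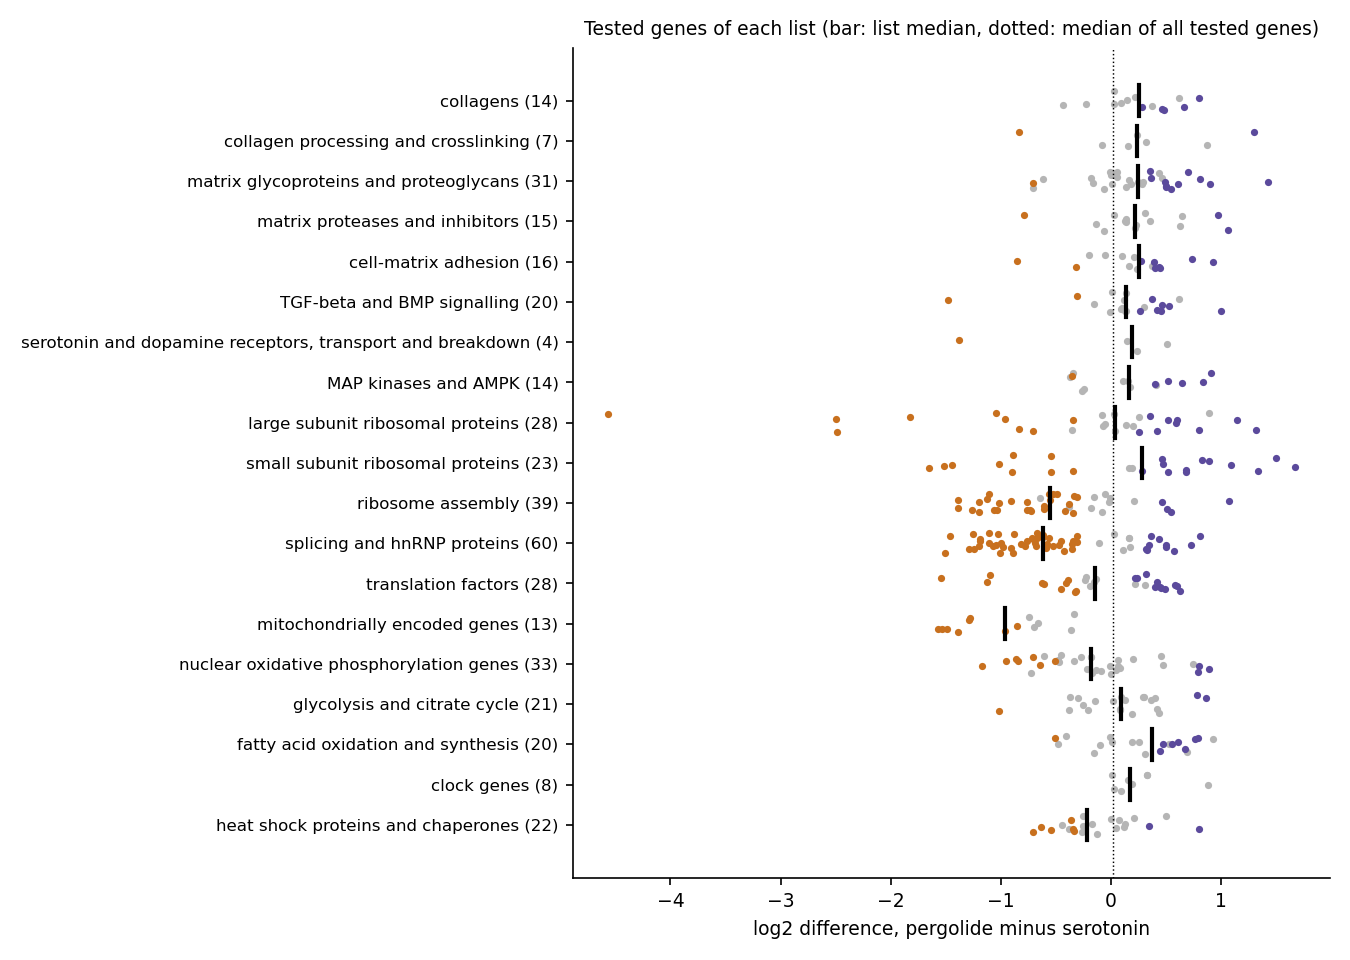
Log2 difference of pergolide minus serotonin valves for each tested gene of 19 gene lists (number tested in parentheses), with genes called higher in purple, lower in orange and not called in grey. Bars are list medians, lowest at -0.96 for mitochondrially encoded genes and highest at 0.38 for fatty acid oxidation and synthesis, beside 0.02 for all tested genes (dotted line).

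Ribosomal protein genes, the structural parts of the ribosome, did not move in a single direction. Of 28 tested genes of the large subunit 9 were higher and 9 lower, with a median of 0.04 (7 to 13 higher, 8 to 9 lower and a median of -0.02 to 0.29 over the alternatives), and of 23 of the small subunit 12 were higher and 9 lower, with a median of 0.28 (11 to 13 higher, 6 to 9 lower and a median of 0.23 to 0.53 over the alternatives). RPS15A (ENSOCUG00000000179) was 413, 498, 323, 362 and 351 CPM in serotonin replicates 1 to 5 and 151, 147, 149, 123 and 148 CPM in pergolide replicates 1 to 5, a log2 difference of -1.44 (standard error 0.12, edgeR adjusted p = 5.6e-06). RPSA (ENSOCUG00000022661), which is also known as a laminin receptor, was higher, at 7.84, 13.8, 11.9, 10.9 and 8.36 CPM in serotonin replicates 1 to 5 and 29.5, 33.7, 31.0, 38.7 and 34.1 CPM in pergolide replicates 1 to 5. Each of these genes had groups that lay apart, and the log2 difference of RPSA was 1.68 (standard error 0.15, edgeR adjusted p = 8.8e-06).

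With TMM scaling the summed level of the 28 large subunit genes was 4794, 4432, 4635, 4843 and 5076 CPM in serotonin replicates 1 to 5 and 3992, 3887, 3646, 3787 and 3929 CPM in pergolide replicates 1 to 5, lower in every pergolide valve. For the 23 small subunit genes the sum was 3141, 2986, 3136, 3037 and 3122 CPM in serotonin replicates 1 to 5 and 2737, 2773, 2414, 2622 and 2728 CPM in pergolide replicates 1 to 5, also lower in every pergolide valve, opposite in sign to the median of that list. Both sums depend on the TMM factors. As a share of all reads, ribosomal protein genes held 0.711 ± 0.157% in serotonin and 0.733 ± 0.0983% in pergolide valves (SD, n = 5). These shares overlapped and did not differ detectably (exact two-sided permutation test, p = 0.79, n = 5 against 5). RPL37, an abundant member, had a log2 difference of -0.97 (edgeR adjusted p = 2.2e-05). Further genes of the small subunit that were lower were RPS27 and RPS23, with log2 differences of -1.65 and -1.01 (edgeR adjusted p = 5.0e-06 and 6.4e-06), while RPS26 was higher by 1.50 (edgeR adjusted p = 0.00018). In the large subunit RPL23A was 139, 195, 76.9, 106 and 125 CPM in serotonin replicates 1 to 5 and 21.6, 28.3, 24.8, 17.0 and 21.9 CPM in pergolide replicates 1 to 5, a log2 difference of -2.49 (standard error 0.22, edgeR adjusted p = 7.6e-06). RPL28 and RPL36 were lower too, with -1.82 and -2.49 (edgeR adjusted p = 6.2e-06 and 4.0e-05). RPL4, the most abundant of its list, was 1141 ± 116 CPM in serotonin and 899.8 ± 58.2 CPM in pergolide valves (SD, n = 5), a log2 difference of -0.34 (standard error 0.09, edgeR adjusted p = 0.016) whose call was lost with library sizes taken without ENSOCUG00000029084 (edgeR adjusted p = 0.65).

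RPL21 (ENSOCUG00000027750) had the lowest estimate among genes with a symbol, at 18.2, 14.7, 9.25, 11.1 and 18.7 CPM in serotonin replicates 1 to 5 and 0.568, 0.505, 0, 0.521 and 1.24 CPM in pergolide replicates 1 to 5. The log2 difference was -4.57 (standard error 0.39, edgeR adjusted p = 6.3e-06), resting on 267 reads over the serotonin valves against 16 over the pergolide valves, at most 7 in a valve, so its size is uncertain. Ribosomal protein genes have near-identical copies elsewhere in the genome, and how reads that match several places were counted is not stated. A gene of this family with few reads, such as RPL21, RPL36, RPSA or RPS26, may share reads with a copy, and its value is uncertain for that reason.

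Translation factors had 28 of 42 genes tested, 11 higher and 10 lower, with a median of -0.14 (6 to 13 higher, 3 to 11 lower and a median of -0.19 to 0.12 over the alternatives) that turned to 0.12 with library sizes taken without ENSOCUG00000029084, where the calls were 13 higher and 3 lower. With serotonin replicates 2 and 4 left out they were 6 higher and 9 lower. EEF1A1, the elongation factor that brings aminoacyl-tRNA to the ribosome, was higher, at 1841 ± 227 CPM in serotonin and 2467 ± 239 CPM in pergolide valves (SD, n = 5), a log2 difference of 0.42 (standard error 0.12, edgeR adjusted p = 0.015) that was not called with serotonin replicates 2 and 4 left out together (edgeR adjusted p = 0.088). EEF1B2, the exchange factor that reloads EEF1A1 with GTP, was lower. It was 332, 329, 256, 357 and 342 CPM in serotonin replicates 1 to 5 and 134, 127, 101, 92.2 and 98.9 CPM in pergolide replicates 1 to 5, a log2 difference of -1.54 (standard error 0.12, edgeR adjusted p = 5.6e-06). EIF5B, which joins the ribosomal subunits, and PAIP2, a repressor of the poly(A)-binding protein, had log2 differences of -1.10 and -1.12 (edgeR adjusted p = 5.1e-05 and 1.4e-05).

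Small nucleolar and Cajal body RNAs guide chemical marks on ribosomal and spliceosomal RNA. They were gathered by their names after their values had been seen, and are described without weight on the direction. Of 50 with a symbol 30 were tested, 9 higher and 16 lower. SNORA68 was 3.06 ± 0.868 CPM in serotonin and 10.0 ± 1.13 CPM in pergolide valves (SD, n = 5), SNORA76 2.22 ± 0.779 CPM and 7.38 ± 1.67 CPM, and SNORA73B 2.89 ± 0.535 CPM and 8.28 ± 4.14 CPM. SNORD99 was lower, 14.6 ± 10.0 CPM against 3.50 ± 0.736 CPM (SD, n = 5). The log2 differences of these 4 were 1.72, 1.72, 1.50 and -2.04 (edgeR adjusted p = 6.1e-05, 0.00034, 0.0052 and 0.0018). SNORA74 had 10 reads over the serotonin valves, at most 3 in a valve, and 100 over the pergolide valves (edgeR adjusted p = 0.00058), so no size is given. Most such RNAs lie within introns of other genes, several of them ribosomal protein genes, and the strand setting of the counting is not stated, so reads of an RNA and of its host gene cannot be told apart here.

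Mitochondrially encoded genes, the 13 protein genes of the mitochondrial DNA, all had symbols and were tested. The estimate was below 0 in each of the 13 and 8 were called lower, with a median of -0.96 (none higher, 5 to 13 lower and a median of -1.07 to -0.56 over the alternatives). The calls were none higher and 11 lower by DESeq2, none higher and 10 lower by limma-voom, and 13 and 12 lower with svaseq variables in limma-voom and edgeR. With serotonin replicates 2 and 4 left out 5 were lower. ND6 (ENSOCUG00000029113), a subunit of complex I and the one encoded on the other strand of the mitochondrial DNA, was 1176, 2064, 1085, 1712 and 1230.4 CPM in serotonin replicates 1 to 5. In pergolide replicates 1 to 5 it was 555, 562, 584, 400.4 and 339.6 CPM. The groups did not overlap, and the log2 difference was -1.57 (standard error 0.20, edgeR adjusted p = 0.00011).

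ND4L and ND2, also of complex I, had log2 differences of -1.49 (standard error 0.25, edgeR adjusted p = 0.00079) and -1.39 (standard error 0.28, edgeR adjusted p = 0.0023). The most abundant, COX1, a core subunit of cytochrome oxidase, was 15203, 39732, 20915, 31918 and 19533 CPM in serotonin replicates 1 to 5 and 23901, 24369, 24503, 14729 and 13545 CPM in pergolide replicates 1 to 5. Its groups overlapped and it was not called (edgeR adjusted p = 0.41, 95% interval of the log2 difference from -0.96 to 0.29), although it was called with svaseq variables in limma-voom (adjusted p = 0.024). Within each group the level of COX1 followed the same valves, with serotonin replicates 2 and 4 high and pergolide replicates 4 and 5 low. The summed CPM of the 13 genes was 71900.1, 155475, 82481, 134491 and 91368 in serotonin replicates 1 to 5 and 75387, 79028, 78810.0, 42005 and 41519.7 in pergolide replicates 1 to 5.

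Nuclear genes of oxidative phosphorylation had 33 of 77 tested, 3 higher and 7 lower, with a median of -0.18 (2 to 7 higher, 2 to 12 lower and a median of -0.31 to 0.12 over the alternatives) that turned to 0.10 under library sizes without ENSOCUG00000029084 (7 higher and 4 lower) and to 0.12 with serotonin replicates 2 and 4 left out (6 higher and 2 lower). The balance of calls rested on single valves, with 6 higher and 3 lower without serotonin replicate 2 and 3 higher and 3 lower without serotonin replicate 4. There were 3 higher and 4 lower without pergolide replicate 1, and 4 higher and 3 lower without either pergolide replicate 4 or 5. NDUFB6, an accessory subunit of complex I, was 27.4, 58.4, 32.1, 45.3 and 36.5 CPM in serotonin replicates 1 to 5 and 24.0, 22.1, 24.5, 16.7 and 15.5 CPM in pergolide replicates 1 to 5, a log2 difference of -0.95 (standard error 0.20, edgeR adjusted p = 0.0034). The groups of NDUFB6 lay apart, with every pergolide valve lower. ATP5B and ATP5S, of the ATP synthase, were higher by 0.79 and 0.80 (edgeR adjusted p = 0.012 and 0.0039). In the fit of all 20 valves ATP5B was not called (edgeR adjusted p = 0.063).

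Glycolysis and citrate cycle genes had 21 of 40 tested, 2 higher and 1 lower, with a median of 0.09 (2 to 9 higher, none to 3 lower and a median of 0.01 to 0.37 over the alternatives). The calls were 2 higher and 2 lower without serotonin replicate 1, 5 higher and 1 lower with serotonin replicates 2 and 4 left out, and 9 higher and none lower with library sizes without ENSOCUG00000029084. ENO1, enolase, was 80.7, 82.5, 94.5, 91.5 and 101 CPM in serotonin replicates 1 to 5 and 163, 167, 157, 173 and 162 CPM in pergolide replicates 1 to 5, with the groups far apart and a log2 difference of 0.87 (standard error 0.08, edgeR adjusted p = 8.8e-06). SUCLA2, a citrate cycle ligase, was higher by 0.78 (edgeR adjusted p = 0.0071). PDK4, the kinase that shuts off pyruvate dehydrogenase, was 346, 141, 288, 132 and 198 CPM in serotonin replicates 1 to 5 and 90.5, 86.4, 88.2, 142 and 138 CPM in pergolide replicates 1 to 5. Serotonin replicates 2 and 4 overlapped the pergolide valves, and PDK4 had a log2 difference of -1.02 (standard error 0.26, edgeR adjusted p = 0.011) that was not called in the fit of all 20 valves (edgeR adjusted p = 0.058) or with library sizes without ENSOCUG00000029084 (edgeR adjusted p = 0.063). LDHB, the most abundant of the list, was not called (edgeR adjusted p = 0.69) except with svaseq variables in limma-voom (adjusted p = 0.046).

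Genes of fatty acid oxidation and synthesis had 20 of 31 tested, 7 higher and 1 lower, with a median of 0.38 (4 to 11 higher, none to 2 lower and a median of 0.24 to 0.63 over the alternatives). With library sizes without ENSOCUG00000029084 the calls were 11 higher and none lower, and without pergolide replicate 3 they were 5 higher and 2 lower. ACACA, the rate-limiting enzyme of fatty acid synthesis, was 55.1, 52.5, 62.4, 62.8 and 72.2 CPM in serotonin replicates 1 to 5 and 91.8, 88.4, 99.4, 102 and 84.2 CPM in pergolide replicates 1 to 5. Pergolide valves were all higher, and the log2 difference was 0.61 (standard error 0.10, edgeR adjusted p = 0.00046). ELOVL5, which elongates polyunsaturated fatty acids, and HADHB, of mitochondrial β-oxidation, were higher by 0.67 and 0.79 (edgeR adjusted p = 0.00047 and 0.0071). ACADM, a dehydrogenase of β-oxidation, was lower, 182 ± 46.4 CPM against 128 ± 23.4 CPM in pergolide valves (SD, n = 5), with -0.50 (standard error 0.17, edgeR adjusted p = 0.036). That call was lost without any of serotonin replicates 2, 4 and 5 or pergolide replicates 1, 4 and 5 (edgeR adjusted p from 0.055 to 0.076), in the fit of all 20 valves and under library sizes without ENSOCUG00000029084.

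Of 8 tested clock genes, which keep circadian time, none was called by edgeR, DESeq2 or limma-voom, the median being 0.18 (none to 2 higher, none lower and a median of 0.06 to 0.40 over the alternatives), and CIART, HLF and CRY2 had the smallest p-values (edgeR adjusted p = 0.058, 0.11 and 0.18). Unadjusted p-values were under 0.05 in 2 of the 8, and CIART was called without serotonin replicate 3 (edgeR adjusted p = 0.015) or without pergolide replicate 4 (edgeR adjusted p = 0.034). CIART was also called with upper-quartile factors (edgeR adjusted p = 0.048). Library sizes without ENSOCUG00000029084 called both CIART and HLF (edgeR adjusted p = 0.021 and 0.045). NR1D2, a repressor of the clock and the most abundant of the list, was 361 ± 75.2 CPM in serotonin, 403 ± 44.2 CPM in pergolide and 198 ± 72.2 CPM in non-treated valves (SD, n = 5). Both treated means of this gene lay above the non-treated mean, which was not tested here.

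Heat shock proteins and chaperones had 22 of 41 tested, 2 higher and 6 lower, with a median of -0.21 (2 to 4 higher, 2 to 11 lower and a median of -0.27 to 0.05 over the alternatives) that turned to 0.05 under library sizes without ENSOCUG00000029084 (4 higher and 2 lower). Without serotonin replicate 2 or pergolide replicate 4 the calls were 2 higher and 3 lower, whereas 8 were lower by DESeq2 and by limma-voom, and 11 with svaseq variables in either fit. DNAJB4 and HSPA4, cytosolic partners in protein folding, were lower. DNAJB4 was 157 ± 22.8 CPM in serotonin and 96.3 ± 11.1 CPM in pergolide valves (SD, n = 5), a log2 difference of -0.71 (standard error 0.11, edgeR adjusted p = 0.00046), and HSPA4 had -0.63 (standard error 0.12, edgeR adjusted p = 0.0018). HSPE1, the mitochondrial co-chaperonin, was higher by 0.80 (edgeR adjusted p = 0.0020). HSP90AB1, the most abundant, was not called by edgeR, with a log2 difference of -0.25 (edgeR adjusted p = 0.053). It was called lower by DESeq2 (adjusted p = 0.017), by limma-voom (adjusted p = 0.034) and with svaseq variables in limma-voom and edgeR (adjusted p = 0.0051 and 0.010). Without serotonin replicate 1 edgeR called it too (edgeR adjusted p = 0.037).

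**Figure D4:**
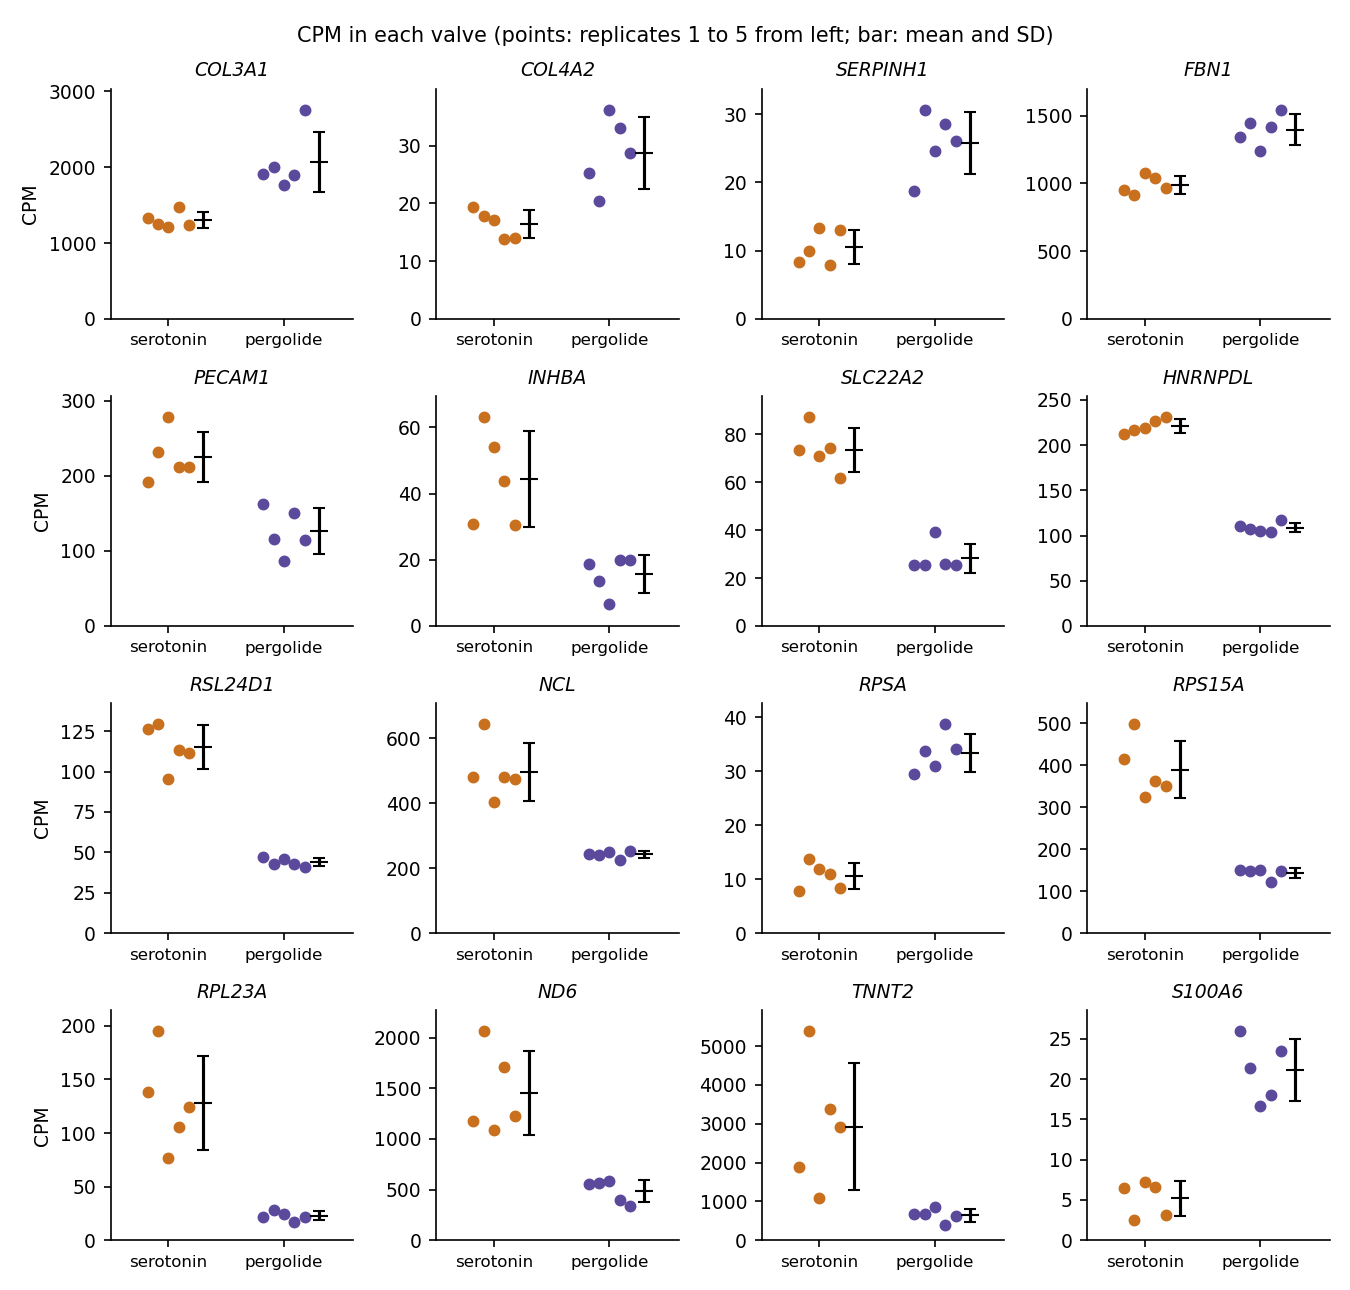
CPM of 16 genes in each of the 10 valves (vertical axes start at 0), where points are replicates 1 to 5 of serotonin (orange) and pergolide (purple) valves from left to right and black marks are the mean and SD of 5 valves. In all 16 panels the lowest valve of the higher group lies above the highest valve of the other.

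The tissue was checked with marker genes of the cell types that a valve sample can hold, by their summed CPM per valve. Interstitial cell markers (8 of 12 tested, 3 higher, none lower, median 0.40, with 2 to 5 higher, none lower and a median of 0.31 to 0.68 over the alternatives) summed to 6681, 5356, 7261, 6293 and 6771 CPM in serotonin replicates 1 to 5 and 6909, 7815, 6237, 8217 and 9596 CPM in pergolide replicates 1 to 5. VIM, an intermediate filament protein and the most abundant of them, was not called, with a log2 difference of -0.01 and a 95% interval from -0.40 to 0.37. PDGFRB, a receptor of mesenchymal cells, was higher by 0.52 (edgeR adjusted p = 0.031), a call that was lost without any of serotonin or pergolide replicates 2, 4 and 5 (edgeR adjusted p from 0.055 to 0.076). The markers called higher were PDGFRB and the matrix genes DPT and COL3A1.

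Endothelial markers had 4 of 15 tested, 2 lower and none higher, with a median of -0.61 (none higher, 2 to 3 lower and a median of -0.70 to -0.35 over the alternatives). PECAM1 (ENSOCUG00000015220), an adhesion molecule of endothelial junctions, was 191, 232, 278, 212 and 212 CPM in serotonin replicates 1 to 5 and 163, 116, 86.3, 149.9 and 114 CPM in pergolide replicates 1 to 5. The groups did not overlap, and the log2 difference was -0.84 (standard error 0.16, edgeR adjusted p = 0.0016). EMCN, a sialomucin of the endothelial surface, had -0.88 (standard error 0.17, edgeR adjusted p = 0.0016), while PTPRB, the most abundant of the list over the 10 valves, was not called (edgeR adjusted p = 0.091) except with svaseq variables in limma-voom (adjusted p = 0.045). The sum of the 4 was 518, 612, 679, 522 and 529.6 CPM in serotonin replicates 1 to 5 and 469, 392, 303, 457 and 354 CPM in pergolide replicates 1 to 5, also without overlap. That absence of overlap depends on the TMM factors, from 0.668 to 1.12 in serotonin and from 1.01 to 1.28 in pergolide valves. The part of endothelial, adipocyte or macrophage content in the differences of other genes was not tested. In bulk tissue fewer cells of a type and less RNA per cell cannot be told apart.

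Cardiomyocyte markers were abundant in all valves and 18 of 26 were tested, 1 higher, 1 lower and 16 not called, with a median of -0.01 (none to 5 higher, 1 to 5 lower and a median of -0.13 to 0.28 over the alternatives). With svaseq variables the calls were 5 higher and 5 lower in limma-voom and 4 higher and 5 lower in edgeR, so the number not called depended on the fit. Their sum was 57258, 111279, 64688, 103548 and 68874 CPM in serotonin replicates 1 to 5 and 87753, 98699.5, 98458, 56803 and 51509 CPM in pergolide replicates 1 to 5. With TMM scaling it was high in serotonin replicates 2 and 4 and pergolide replicates 1 to 3, and low in the other 5 valves. The size of this sum depends on the TMM factors, which were smallest in serotonin replicates 2 and 4 (0.668 and 0.774) and so raised their CPM. The most abundant, TTN, the giant sarcomere protein titin, had a log2 difference of 0.09 with a 95% interval from -0.52 to 0.70, and was called with svaseq variables in limma-voom (adjusted p = 0.039).

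TNNT2 (ENSOCUG00000015634), the troponin T of heart muscle, stood apart from the other markers. It was 1873, 5381, 1092, 3369 and 2915 CPM in serotonin replicates 1 to 5 and 669, 667, 846, 380.4 and 615 CPM in pergolide replicates 1 to 5. Every pergolide valve was below every serotonin valve. Pergolide replicates 1 to 3 had more summed cardiomyocyte RNA than serotonin replicates 1, 3 and 5, and the part of heart muscle content in the difference of TNNT2 was not tested. The log2 difference was -2.20 (standard error 0.35, edgeR adjusted p = 0.00054), and non-treated valves had 3080.2 ± 1452 CPM (SD, n = 5). CSRP3, a muscle LIM protein, was higher by 0.63 (edgeR adjusted p = 0.019), a call lost without pergolide replicate 1 (edgeR adjusted p = 0.051) and in the fit of all 20 valves (edgeR adjusted p = 0.10). NRAP, a protein of muscle attachment sites, was not called by edgeR alone (edgeR adjusted p = 0.14) but was called lower with svaseq variables in limma-voom and edgeR (adjusted p = 7.3e-05 and 0.00016).

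With TMM scaling, sums over nuclear genes of oxidative phosphorylation, of glycolysis and citrate cycle and of fatty acid oxidation and synthesis were each highest in the same 5 valves as the cardiomyocyte sum. All these sums share the TMM factors, smallest in serotonin replicates 2 and 4 (0.668 and 0.774), and the order of the valves depends on them. For nuclear oxidative phosphorylation the sum was 2169.5, 4019, 2346, 3555 and 2524 CPM in serotonin replicates 1 to 5 and 3314, 3477, 3414, 2204 and 2009 CPM in pergolide replicates 1 to 5. These 5 were serotonin replicates 2 and 4 and pergolide replicates 1 to 3. The part of heart muscle content in the differences of mitochondrial and metabolic genes was not tested. With serotonin replicates 2 and 4 left out together, a choice made after the data were seen, 1903 genes were called, 819 higher and 1084 lower. In that fit 5 of the 13 mitochondrially encoded genes were lower.

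Markers of activated myofibroblasts and smooth muscle had 6 of 11 tested, 1 higher and 2 lower, with a median of -0.39 (none to 2 higher, 1 to 2 lower and a median of -0.53 to -0.02 over the alternatives) and sums of 888, 936, 702, 799.6 and 802 CPM in serotonin replicates 1 to 5. In pergolide replicates 1 to 5 the sums were 698, 689.7, 785, 662 and 693 CPM. The median was -0.23 without serotonin replicate 2, -0.02 with serotonin replicates 2 and 4 left out, and -0.09 with library sizes without ENSOCUG00000029084. CALD1, caldesmon, and TPM2, a tropomyosin, both actin-binding, were lower, with log2 differences of -0.65 (standard error 0.09, edgeR adjusted p = 0.00025) and -0.79 (standard error 0.15, edgeR adjusted p = 0.0014). The CALD1 call was lost with library sizes taken without ENSOCUG00000029084 (edgeR adjusted p = 0.064). TAGLN, another actin-binding protein of smooth muscle, was higher at a low level, 1.90 ± 1.09 CPM against 4.11 ± 0.733 CPM in pergolide valves (SD, n = 5, edgeR adjusted p = 0.021), and lost its call without serotonin replicate 1, 4 or 5 (edgeR adjusted p from 0.051 to 0.056). DES, desmin, the most abundant, was not called (edgeR adjusted p = 0.17) and was called without serotonin replicate 2 (edgeR adjusted p = 0.048), with svaseq variables in limma-voom (adjusted p = 0.048) and with library sizes without ENSOCUG00000029084 (edgeR adjusted p = 0.012).

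Adipocyte markers had 9 of 18 tested, 2 higher, none lower and all with estimates above 0, with a median of 0.76 (none to 5 higher, none lower and a median of 0.51 to 0.98 over the alternatives). Calls ranged from none higher, none lower (without serotonin replicate 3 or 5 or pergolide replicate 1 or 2) to 5 higher, none lower (without pergolide replicate 4), with 1 higher without serotonin replicate 2 or pergolide replicate 3. Their sums overlapped, 265, 113, 170.2, 189 and 144 CPM in serotonin replicates 1 to 5 and 399.5, 406, 289, 159 and 229.7 CPM in pergolide replicates 1 to 5. CD36, a fatty acid transporter and the most abundant of the list, which heart muscle and macrophages also express, was higher by 0.77 (edgeR adjusted p = 0.034). Its call was lost without serotonin replicate 3 or 5 or pergolide replicate 1, 2 or 3 (edgeR adjusted p from 0.066 to 0.083), and in the fit of all 20 valves (edgeR adjusted p = 0.19). AQP7, a glycerol channel, had 18 reads over the serotonin valves and 82 over the pergolide valves (edgeR adjusted p = 0.034), and lost its call in 6 of the 10 fits without 1 valve, those without serotonin replicate 1, 2, 3 or 5 or pergolide replicate 1 or 2 (edgeR adjusted p from 0.054 to 0.078). GPD1, which makes glycerol phosphate, was not called (edgeR adjusted p = 0.073) and was called without pergolide replicate 4 (edgeR adjusted p = 0.022), by DESeq2 (adjusted p = 0.046) and with svaseq variables in limma-voom and edgeR (adjusted p = 0.032 and 0.044). Library sizes without ENSOCUG00000029084 also called GPD1 (edgeR adjusted p = 0.013).

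Macrophage markers had 5 of 14 tested, 2 higher and none lower, with a median of 0.59 (1 to 3 higher, none lower and a median of 0.54 to 0.88 over the alternatives). LAPTM5, a lysosomal protein of blood cells and the most abundant of the 5, was 18.9, 23.1, 23.1, 22.8 and 27.6 CPM in serotonin replicates 1 to 5 and 31.6, 38.1, 33.1, 31.4 and 38.8 CPM in pergolide replicates 1 to 5. All pergolide valves were above all serotonin valves, with a log2 difference of 0.59 (standard error 0.11, edgeR adjusted p = 0.0020). CD53, a tetraspanin of leukocytes, was higher by 0.79 (edgeR adjusted p = 0.046), but was not called without any of serotonin replicates 1 to 4 or pergolide replicates 1, 2, 4 and 5 (edgeR adjusted p from 0.057 to 0.10). C1QB, a complement subunit, was not called (edgeR adjusted p = 0.052), and was called without serotonin replicate 2 (edgeR adjusted p = 0.035) or pergolide replicate 3 (edgeR adjusted p = 0.0079) and by DESeq2 (adjusted p = 0.034). Upper-quartile factors and library sizes without ENSOCUG00000029084 called C1QB too (edgeR adjusted p = 0.042 and 0.011). So did edgeR with no filter and with a filter of 10 counts in every valve (edgeR adjusted p = 0.043 and 0.044). The sums were 44.0, 50.9, 52.3, 51.7 and 78.0 CPM in serotonin replicates 1 to 5 and 81.2, 98.7, 58.3, 87.9 and 91.8 CPM in pergolide replicates 1 to 5, overlapping.

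Markers of other cells were few. Schwann cell and melanocyte markers had 6 of 11 tested, none higher and 1 lower, with a median of -0.17 (none to 2 higher, none to 1 lower and a median of -0.24 to 0.10 over the alternatives) and similar mean sums, 144 ± 26.2 CPM in serotonin and 143 ± 29.2 CPM in pergolide valves (SD, n = 5). The lower one, S100B, a calcium-binding protein of glia, was called (edgeR adjusted p = 0.046) but lost its call without any of serotonin replicates 1, 2 and 4 or pergolide replicates 1, 2 and 5 (edgeR adjusted p from 0.085 to 0.12) and under several other settings. SCN7A, a sodium channel, was not called (edgeR adjusted p = 0.10), but was called without replicate 2 of either group (edgeR adjusted p from 0.039 to 0.041) and with svaseq variables in limma-voom and edgeR (adjusted p = 0.031 and 0.020). Library sizes without ENSOCUG00000029084 also called SCN7A (edgeR adjusted p = 0.012). MITF, the most abundant, was not called (edgeR adjusted p = 0.72). Of red cell markers only GYPC was tested and it was not called (edgeR adjusted p = 0.089), but passed without pergolide replicate 2 (edgeR adjusted p = 0.019) and with svaseq variables in limma-voom and edgeR (adjusted p = 0.025 and 0.027). Of chondrocyte markers only HAPLN1 was tested, and of markers of T, B and mast cells 1 had a symbol and none passed the filter. No marker with a symbol in these lists was at 3 reads or fewer over the 10 valves, and markers without a symbol could not be looked up.

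**Figure D5:**
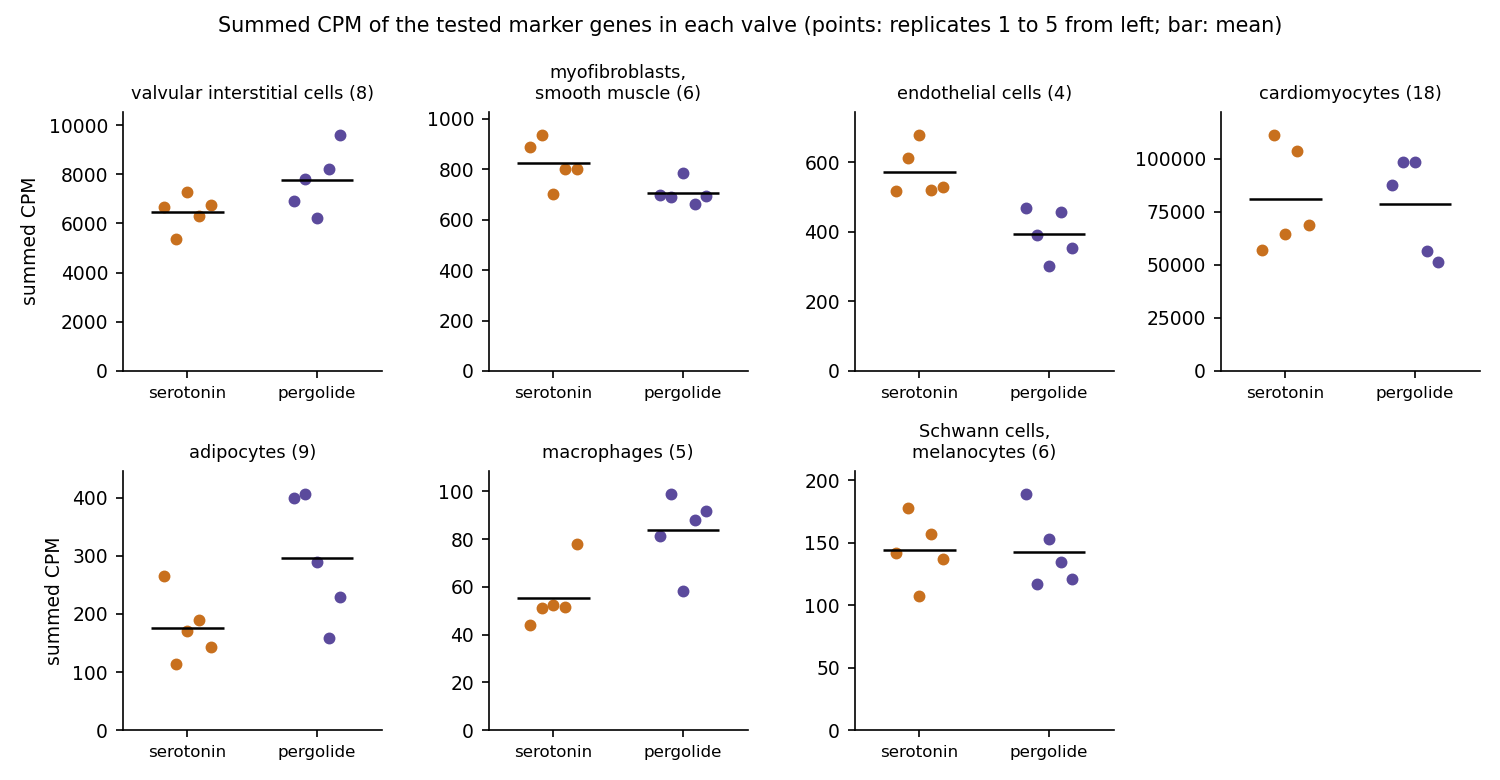
Summed CPM of the tested markers of 7 cell types in each valve (number of genes in parentheses, axes start at 0), where points are replicates 1 to 5 from left to right and bars are group means. With TMM scaling endothelial sums do not overlap between groups, whereas cardiomyocyte sums range from 51509 to 111279 CPM with both groups over most of the range.

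The study assayed COL1A2, MGP, RPL11, HAPLN1 and miR-107 by RT-qPCR as well, and their counts are given for that reason. RPL11 (ENSOCUG00000022928), a ribosomal protein that also restrains MDM2, was 347, 298, 293, 326 and 336 CPM in serotonin replicates 1 to 5 and 191, 176, 157, 166 and 204 CPM in pergolide replicates 1 to 5. All pergolide valves were lower, with a log2 difference of -0.84 (standard error 0.09, edgeR adjusted p = 2.6e-05), and the non-treated valves lay between the groups at 232 ± 29.2 CPM (SD, n = 5). COL1A2 (ENSOCUG00000012264), a chain of the main fibrillar collagen, was 804, 646, 699, 998 and 702 CPM in serotonin replicates 1 to 5 and 865, 929.7, 1111, 1040.4 and 1379.5 CPM in pergolide replicates 1 to 5. The ranges overlapped, and the log2 difference was 0.47 (standard error 0.15, edgeR adjusted p = 0.029). Without serotonin replicate 2, 3 or 5 or pergolide replicate 3 or 5 the gene was not called (edgeR adjusted p from 0.053 to 0.072).

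MGP (ENSOCUG00000016964), matrix Gla protein, an inhibitor of calcification, was 903, 934, 874, 1093 and 804 CPM in serotonin replicates 1 to 5 and 897, 851, 900.2, 895 and 879.6 CPM in pergolide replicates 1 to 5. The groups overlapped and it was not called (edgeR adjusted p = 0.67), with a 95% interval of the log2 difference from -0.26 to 0.14, and non-treated valves were at 541 ± 155 CPM (SD, n = 5). HAPLN1, which links hyaluronan to proteoglycans, was 50.1 ± 17.9 CPM in serotonin and 52.4 ± 10.7 CPM in pergolide valves (SD, n = 5), with an interval from -0.39 to 0.51 and edgeR adjusted p = 0.86. The gene of miR-107 had 12 reads over the 5 serotonin valves and 9 over the 5 pergolide valves, so a difference was not detectable at this depth.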

How the data were processed

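Gene counts of 20 rabbit tricuspid valves, deposited by the authors as raw read counts per Ensembl gene, were used, 5 pergolide and 5 serotonin valves in the test. Upstream, the authors depleted ribosomal RNA, made stranded libraries with a SMARTer kit, trimmed reads, aligned them to oryCun2 with TopHat2 2.1.1, checked quality with Picard and counted with HTSeq in union mode. Which annotation release was used, how strand was set and what became of multi-mapped reads are not given in the sources used here.

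Symbols came from the symbol column of the study's supplementary table, which named 3521 identifiers, 564 of them matched on their number after surplus leading zeros, while 273 were too short to match. Its fold changes were not used. Genes were filtered with filterByExpr, scaled by TMM and tested with edgeR 4.0.16 (R 4.3.3) by quasi-likelihood, with Benjamini-Hochberg adjustment over 8250 genes and a threshold of 0.05. Log2 CPM for principal components used a prior count of 2. Intervals are at 95%. Single values per valve were compared by exact permutation. No size is given where each valve of a group had at most 3 counts.

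The genes described are the 10 largest rises and falls with a symbol and 2 per direction without, among called genes with valves that did not overlap and a mean log2 CPM of at least 1, the 3 smallest p-values and the most abundant gene of each list, and genes of the RT-qPCR assays. Some genes that this rule picks are not reported here. Members and lists were chosen with earlier results of these data known.

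Alternatives were DESeq2 1.42.0, limma-voom 3.58.1, svaseq variables (sva 3.50.0), other scalings, filters and thresholds, all 20 valves in the fit, a replicate block, and each valve left out. A fit without serotonin replicates 2 and 4 was added after the data were seen. The pipeline was tested on simulated data, and no pair of valves was alike within sampling noise. Figures were drawn with Python 3.11.15 and matplotlib 3.10.9. Dexfenfluramine valves entered only the fit of all 20 valves.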

Additional observations from a re-analysis of the deposited data

Results flagged for a closer look

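In each group of 5 valves a valve was looked for whose gap to its nearest neighbour was too large for the group's range by Dixon's criterion at 95%. Of 262 groups examined 10 held such a valve, where chance gives about 1 in 20 groups, and the cause of each was not tested. In serotonin valves EEF1B2 was low in replicate 3, at 255.5 CPM against 329 or more in the others, and PIN4 was high in replicate 2, at 26.6 CPM against at most 12.7.

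Among pergolide valves replicate 2 had the most reads, 5921025, against at most 4848510, and a MAP2K6 level of 12.3 CPM against at most 10.4. Replicate 5 was high in P4HA3, at 13.1 CPM against at most 7.01, and in COL3A1, at 2756 CPM against at most 1998. Replicate 3 was low in LTBP1, at 314.6 CPM against 349 or more, low in MAOA, at 27.5 CPM against 42.6 or more, and high in SLC22A2, at 39.1 CPM against at most 25.7. RPS15A was low in replicate 4, at 122.6 CPM against 147 or more.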

How the results depend on the processing

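Of the 94 called genes chosen for description 77 were called in every alternative tried on single genes, 17 failed in at least 1, and 18 of the 30 not called passed in at least 1. None was called in the opposite direction, and 11 genes not called changed sign without passing. Library sizes taken without ENSOCUG00000029084 gave 2017 genes higher and 496 lower, against 1082 and 1364. At an adjusted p under 0.01 there were 1369 calls, 499 higher and 870 lower, and at an adjusted p under 0.05 with at least a 2-fold difference there were 382, 132 higher and 250 lower.

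Leaving out 1 valve gave 2074 to 2263 calls, and leaving out serotonin replicates 2 and 4 together, chosen after the data were seen, gave 1903. The difference in the share of ENSOCUG00000029084 (pergolide minus serotonin) ranged from -4.59 percentage points without serotonin replicate 1 to -2.13 without serotonin replicate 2. DESeq2 called 2495 genes, limma-voom 2404, the fit of all 20 valves 2389, and the fits with svaseq variables 2960 and 2961. Those fits also called 13 (limma-voom) and 8 (edgeR) of the genes not called, TTN and COX1 among the 13. With library sizes taken without ENSOCUG00000029084, higher genes rose from 11 to 15 for matrix glycoproteins, from 7 to 9 for TGF-β and BMP signalling, from 3 to 5 for interstitial cells, from 2 to 5 for adipocytes, from 1 to 5 for cardiomyocytes and from none to 2 for clock genes. With svaseq variables both fits called MMP2, SCN7A and GYPC, and limma-voom also DES. The limma-voom fit without them did not call CD53, CD36, PDGFRB and S100B. The medians of the large subunit ribosomal proteins, cardiomyocytes, chondrocytes and of the Schwann cell and melanocyte list changed sign in at least 1 alternative.

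With the replicate number as a block (replicate block) 1890 genes were called, 799 higher and 1091 lower. Among the genes chosen for description this block lost 9 calls and gained 1, that of P4HA3. The calls lost were those of AQP7, TAGLN, TIMP4, CD53, PDGFRB, COL1A2, RPL4, ACADM and S100B (edgeR adjusted p from 0.052 to 0.096). The numbers do not pair rabbits by any label, and valves with the same number had correlations of -0.17, 0.05, -0.11, -0.21 and 0.12 once group means were removed, so not every valve correlated best with its own number. Another source of names was not run, because no reference table at hand pairs Ensembl identifiers with symbols. The cause of these shifts was not tested.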
